A study of Mus musculus with 2 samples.

Results

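The collagen genes of the mouse were followed in RNA of tissue labelled large intestine. Members were the protein-coding genes named Col, a number, the letter a and a number in GENCODE, 44 of 43346 annotated genes, of which 11 encode fibrillar chains, 6 encode basement membrane (type IV) chains and 27 encode other chains. The 2 polyA-selected libraries form 1 group, replicates 2 and 1 of adult C57BL/6J mice, an inbred strain, at 8 weeks of age, each labelled as a pool of littermates of both sexes with no treatment or allele named. Depth was 58233142 expected counts in replicate 2 and 50189619 in replicate 1, where an expected count is the authors' estimate of the reads from a gene. Levels are given as TPM, the transcript share corrected for length and scaled to a fixed total, with the SD over both libraries (n = 2).

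Collagens are secreted proteins in which 3 chains wind into a triple helix. The helix requires glycine as the first of each triplet of residues, so that a collagen gene carries long runs of codon triplets that open with GGN, the glycine codons. Fibrillar collagens assemble into the banded fibrils that give the gut wall its tensile strength, type IV collagens form the sheet-like network of basement membranes under epithelium and around vessels and muscle cells, and other collagens link, coat or anchor these structures. In the gut, fibroblasts and smooth muscle cells are the best known sources of the fibrillar chains.

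Both libraries carry marks that bear on their labels. The 4 Y-linked genes examined had a total of 3 expected counts in replicate 2, against 2741 in replicate 1. Xist, the RNA of the inactive X chromosome, had 12563 in replicate 2, against 17 in replicate 1, although both labels name pooled sexes. Car1, a carbonic anhydrase gene of colon epithelium, was at 0.27 TPM in replicate 2, against 0.23 TPM in replicate 1, while Lyz1, a Paneth cell gene, was at 6826 (replicate 2) and 4597 TPM (replicate 1), so the tissue is named here only as the label names it. Levels of single genes are given for each library, so that each can be read without the other. In whole tissue, fewer cells of a type and less RNA per cell cannot be told apart.

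The coding exons show the repeat that all members share. One exon of 54 nt, the one of this length nearest the middle of the coding sequence, is shown for 4 abundant genes because 54 nt holds 6 codon triplets, and capitals mark the GGN codons. The sequences are from GENCODE M21 transcripts on build mm10, written 5′ to 3′ on the coding strand.
Col1a1 exon 34 of 51, chr11:94946574-94946627, plus strand: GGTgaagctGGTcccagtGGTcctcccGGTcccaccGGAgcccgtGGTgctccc
Col3a1 exon 32 of 51, chr1:45337958-45338011, plus strand: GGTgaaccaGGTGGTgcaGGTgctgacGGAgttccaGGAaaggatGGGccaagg
Col4a1 exon 17 of 52, chr8:11238998-11239051, minus strand: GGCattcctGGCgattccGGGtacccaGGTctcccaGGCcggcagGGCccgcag
Col6a1 exon 17 of 35, chr10:76717262-76717315, minus strand: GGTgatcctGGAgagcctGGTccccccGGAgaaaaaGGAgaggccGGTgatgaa
Each exon of the 4 has 18 whole codons and opens with a glycine codon. Col1a1, Col4a1 and Col6a1 have 6 GGN codons in register, and Col3a1 has 7, the extra one outside the register.

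The 3 classes differed in how this repeat is built. Internal coding exons of 54 or 108 nt made up 62.04% of the 627 in fibrillar genes, 8.1% of the 284 in basement membrane genes and 15.5% of the 1006 in the other collagen genes. Over the 21822 other protein-coding genes they were 1.32% of 156938 exons. The longest uninterrupted run of triplets opening with GGN had a median of 338 in the fibrillar genes, with a lowest of 216 in Col24a1 and a highest of 344 in Col3a1. In the basement membrane genes, whose helix is interrupted, the median was 43.5, from 39 in Col4a3 to 66 in Col4a2, and in the other genes it was 45, from 23 in Col26a1 to 113 in all 3 type IX genes and Col22a1. The fibrillar and basement membrane genes did not overlap in either measure. These are features of the annotation, and no test was made.

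**Figure D1:**
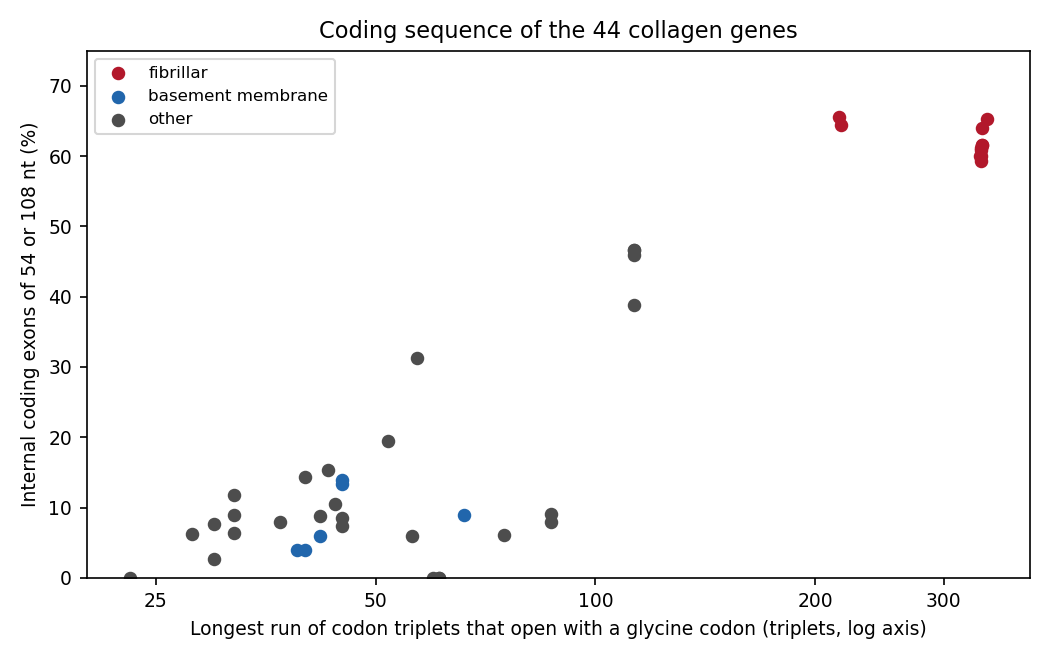
Each point is 1 of the 44 collagen genes, with the longest uninterrupted run of glycine-led codon triplets on the horizontal log axis and the percent of internal coding exons that are 54 or 108 nt long on the vertical axis, coloured by class. The 11 fibrillar genes lie alone at the upper right, at runs of 216 to 344 triplets, and the 6 basement membrane genes lie at runs of 39 to 66.

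Collagen transcripts were present at moderate levels and were concentrated in few genes. The 44 genes summed to 400.2 TPM in replicate 2, against 491.6 TPM in replicate 1, a mean of 446 TPM ± 64.6 (SD, n = 2), from 103177 expected counts in replicate 2 and 104457 in replicate 1. Of this sum, the 7 highest genes, Col6a1, Col6a2, Col3a1, Col4a1, Col1a2, Col1a1 and Col4a2, held 71.4% in replicate 2 and 71.3% in replicate 1. Of the 44 genes, 22 reached 1 TPM in both libraries, 3 in replicate 1 alone, and 19 in neither. Among all 21474 protein-coding genes, 56.2% reached 1 TPM in both. Col6a1, the highest member, ranked 1787 among all genes by mean TPM.

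Fibrillar chains were led by types III and I. Col3a1, the chain of the homotrimeric type III collagen of reticular fibres (ENSMUSG00000026043.14, chromosome 1, 45311538 to 45349706, mm10), was at 55.8 TPM in replicate 2, against 51.6 TPM in replicate 1. Col1a1 and Col1a2 encode the chains of type I collagen, the main fibril-forming collagen of connective tissue. Col1a1 (ENSMUSG00000001506.10, chromosome 11, 94936224 to 94953042) was at 32.5 TPM in replicate 2, against 34.6 TPM in replicate 1. Col1a2 (ENSMUSG00000029661.12, chromosome 6, 4504814 to 4541544) was at 28.9 TPM in replicate 2, against 41.8 TPM in replicate 1. The order of the type I chains differed between the libraries. The TPM ratio of Col1a1 to Col1a2 was 1.12 in replicate 2 and 0.827 in replicate 1, although the assembled protein holds more α1 than α2 chains.

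The regulatory fibrillar chains of type V, which start and limit the growth of type I fibrils, were lower. Col5a1 was at 9.19 TPM in replicate 2, against 10.8 TPM in replicate 1. Col5a2 was at 4.38 (replicate 2) and 5.39 TPM (replicate 1) and Col5a3 at 3.2 (replicate 2) and 3.39 TPM (replicate 1). The TPM ratio of Col5a1 to Col5a2 was 2.1 in replicate 2 and 2.01 in replicate 1 (2.06 ± 0.0602, SD, n = 2), but per longest transcript it was 1.27 in replicate 2 and 1.37 in replicate 1. Col27a1, known from cartilage, was at 4.43 TPM in replicate 2, against 4.53 TPM in replicate 1. Of this TPM, the noncoding transcript Col27a1-205 held 48.05% in replicate 2 and 39.2% in replicate 1. The other 4 fibrillar genes stayed below 1 TPM in both libraries. Col11a2 was at 0.5 (replicate 2) and 0.77 TPM (replicate 1) and Col24a1 at 0.18 (replicate 2) and 0.29 TPM (replicate 1). The cartilage genes Col11a1 and Col2a1 had 9 and 2 expected counts in replicate 2, against 9 and 0 in replicate 1. Of 6 cartilage and bone marker genes 1, Sox9, was detected in both libraries, at 6.1 TPM in replicate 2, against 7.8 TPM in replicate 1, a factor that intestinal crypts also express, and Acan, the cartilage proteoglycan gene, was at 0 counts in both. Bglap, the osteocalcin gene, had 15.7 expected counts in replicate 2, which gave 1.19 TPM, and 0 counts in replicate 1. Fibrillar genes together held 34.8% of collagen TPM in replicate 2 and 31.2% in replicate 1 (33% ± 2.54, SD, n = 2).

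Basement membrane collagen came almost wholly from the α1 and α2 chains of type IV, which occur together in nearly all basement membranes. Col4a1 (ENSMUSG00000031502.9, chromosome 8, 11198423 to 11312826) was at 28.9 TPM in replicate 2, against 41.9 TPM in replicate 1. Col4a2 (ENSMUSG00000031503.9, chromosome 8, 11312805 to 11449287) was at 24.4 TPM in replicate 2, against 31.6 TPM in replicate 1. Col4a1 was the higher of the pair in both libraries, by a TPM ratio of 1.18 in replicate 2 and 1.32 in replicate 1 (1.25 ± 0.0995, SD, n = 2). The chains of specialised membranes were low. Col4a5 and Col4a6, known from smooth muscle basement membranes and X-linked, were at 1.15 and 0.48 TPM in replicate 2, against 1.37 and 0.44 TPM in replicate 1. Col4a3 and Col4a4, known from the kidney filter, were at 0.05 and 0.04 TPM in replicate 2, against 0.56 and 0.09 TPM in replicate 1. The class held 13.8% of collagen TPM in replicate 2 and 15.5% in replicate 1 (14.6% ± 1.2, SD, n = 2).

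Type IV genes lie in head-to-head pairs, and for the abundant pair the start sites fall inside a common stretch. The annotated starts of Col4a1 and Col4a2 are 21 nt apart, those of Col4a3 and Col4a4 72 nt and those of Col4a5 and Col4a6 1309 nt. The start regions of the abundant pair are shown because the genes are read outward from it on opposite strands. Each window runs from 250 nt before to 50 nt after a RefSeq start on GRCm38.p6, and capitals mark the 78 nt that lie in both windows and read as reverse complements of each other.
Col4a1, chr8:11312777-11313076, minus strand: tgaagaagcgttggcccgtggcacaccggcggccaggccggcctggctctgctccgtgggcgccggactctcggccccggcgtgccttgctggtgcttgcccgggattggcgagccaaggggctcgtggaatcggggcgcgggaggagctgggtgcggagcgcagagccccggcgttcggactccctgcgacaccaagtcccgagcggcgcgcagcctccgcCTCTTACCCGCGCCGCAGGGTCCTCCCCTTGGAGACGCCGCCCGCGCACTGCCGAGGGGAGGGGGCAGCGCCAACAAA
Col4a2, chr8:11312555-11312854, plus strand: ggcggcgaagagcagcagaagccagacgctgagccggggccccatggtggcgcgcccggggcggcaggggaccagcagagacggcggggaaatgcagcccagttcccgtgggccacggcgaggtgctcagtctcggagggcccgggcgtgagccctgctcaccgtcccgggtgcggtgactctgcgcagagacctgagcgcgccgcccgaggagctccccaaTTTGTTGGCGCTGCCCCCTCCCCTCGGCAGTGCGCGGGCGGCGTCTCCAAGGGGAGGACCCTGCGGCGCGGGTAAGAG
The windows had 74% and 73.7% G and C, against a median of 52.7% over 27025 promoters. Both held CCAAT and GGGCGG on 1 strand or the other, and neither held TATAAA. Of the 35 members with a RefSeq window, 22 (62.9%) held GGGCGG, against 35.9% of all promoters. These 35 windows had a median of 60% G and C, above the 52.7% of all promoters, and the GGGCGG shares were not matched for this. CCAAT was in 12 (34.3%), against 37.9% of all promoters, and TATAAA in 5 (14.3%), against 14.2%. Of the 18 members above a mean of 1 TPM among them, 13 held GGGCGG, 8 held CCAAT and 1 held TATAAA. Motifs were searched on both strands, and a match is a description of the letters only.

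The other collagens held the largest share of the 3 classes, 51.5% of collagen TPM in replicate 2 and 53.4% in replicate 1 (52.4% ± 1.34, SD, n = 2). Type VI by itself held 35.1% of collagen TPM in replicate 2, against 37.2% in replicate 1 (36.2% ± 1.44, SD, n = 2). It forms beaded microfibrils between basement membranes and fibrils and its first 3 chains make a heterotrimer. Col6a1 (ENSMUSG00000001119.7, chromosome 10, 76708792 to 76726168) was at 58.6 TPM in replicate 2, against 74.5 TPM in replicate 1. Col6a2 (ENSMUSG00000020241.9, chromosome 10, 76595762 to 76623630) was at 56.6 TPM in replicate 2, against 74.4 TPM in replicate 1. Their TPM ratio was 1.03 in replicate 2 and 1 in replicate 1 (1.02 ± 0.0232, SD, n = 2), and per longest transcript it was 1.27 in replicate 2 and 1.23 in replicate 1. Col6a3, the longest of these chains, was at 14.7 TPM in replicate 2, against 19.8 TPM in replicate 1, and its TPM over that of Col6a1 was 0.251 in replicate 2 and 0.266 in replicate 1 (0.259 ± 0.0104, SD, n = 2). Per longest transcript this ratio was 0.168 in replicate 2 and 0.209 in replicate 1, and from counts 0.413 and 0.515. The alternative chain gene Col6a4 was at 10.2 (replicate 2) and 12.8 TPM (replicate 1), Col6a5 at 0.42 (replicate 2) and 1.2 TPM (replicate 1) and Col6a6 at 0.01 (replicate 2) and 0.02 TPM (replicate 1).

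The multiplexins, basement membrane proteoglycans whose C-terminal ends can be released, followed. Col15a1 was at 19 TPM in replicate 2, against 22.6 TPM in replicate 1. Col18a1, the precursor of endostatin, was at 15.5 TPM in replicate 2, against 20 TPM in replicate 1. Among the FACIT collagens, which lie on fibril surfaces, Col12a1 was at 7.5 (replicate 2) and 9.26 TPM (replicate 1), Col14a1 at 6.66 (replicate 2) and 9.33 TPM (replicate 1), Col16a1 at 8.66 (replicate 2) and 7.35 TPM (replicate 1) and Col20a1 at 1.61 (replicate 2) and 1.84 TPM (replicate 1). The type IX genes of cartilage, with Col19a1 and Col22a1, stayed below 1 TPM except for Col9a3, at 0.29 TPM in replicate 2, against 1.01 TPM in replicate 1. Its counts were 28 in replicate 2 and 31 in replicate 1, a ratio of 0.791 relative to all gene counts (exact 95% interval 0.457 to 1.36), with effective lengths of 1692 nt in replicate 2 and 690 nt in replicate 1. Col16a1 and Col3a1 were the only members above a mean of 1 TPM with the higher TPM in replicate 2, and with TMM-scaled counts both were lower there, at log2 ratios of -0.040 for Col16a1 and -0.15 for Col3a1.

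The remaining types were rare. Of the transmembrane collagens, Col23a1 was at 2.74 TPM in replicate 2, against 3.3 TPM in replicate 1, and Col13a1 at 0.85 (replicate 2) and 1 TPM (replicate 1). Col8a2, of the short-chain network type, was at 1.56 (replicate 2) and 1.76 TPM (replicate 1), and its partner Col8a1 at 0.31 (replicate 2) and 0.84 TPM (replicate 1). Col7a1, the anchoring fibril chain, and Col17a1, a hemidesmosome component, both of skin, were at 0.25 and 0.07 TPM in replicate 2, against 0.34 and 0.18 TPM in replicate 1. Col25a1, Col26a1 and Col28a1 stayed below 0.2 TPM in both libraries. By the deposited posterior mean TPM, however, Col28a1 was at 2.37 (replicate 2) and 2.87 TPM (replicate 1) and Col26a1 at 0.73 (replicate 2) and 0.89 TPM (replicate 1), from 10 and 16 expected counts in replicate 2, against 12 and 8 in replicate 1. Other low members were also higher by that measure. Col7a1, Col11a2 and Col2a1 were at 0.99, 0.8 and 0.32 TPM in replicate 2, against 1.29, 1.17 and 0.4 TPM in replicate 1. In all, 6 members were under 10 expected counts in both libraries, namely Col11a1, Col9a1, Col6a6, Col19a1, Col2a1 and Col10a1. Col10a1, the marker of hypertrophic cartilage, was the one member at 0 in both, where up to 3 counts per library are allowed by counting error alone.

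**Figure D2:**
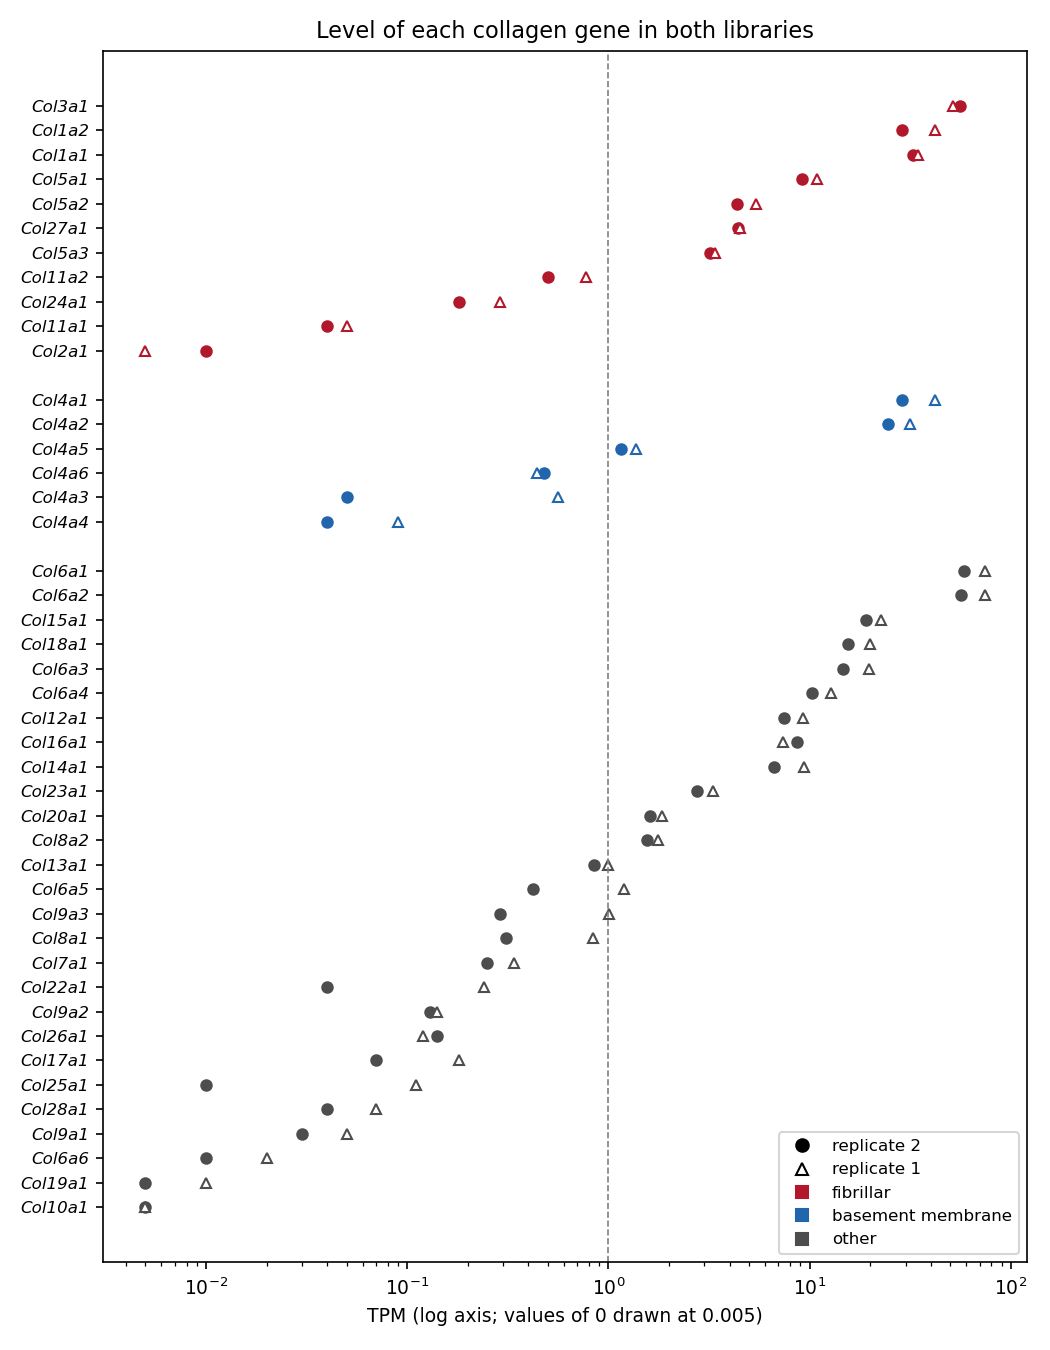
Each row is 1 collagen gene within its class, and the horizontal log axis gives TPM, with filled circles for replicate 2 and open triangles for replicate 1. Of the 44 genes 22 lie right of the dashed line at 1 TPM in both libraries, and the range runs from 0 for Col10a1 to 74.5 TPM for Col6a1.

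Between the libraries, most collagen genes above a mean of 1 TPM had the lower TPM in replicate 2. None of the 22 members with a mean of at least 1 TPM was 2-fold apart on the log2(TPM + 1) scale, which understates differences between low values. Across the 13512 genes of that level, 762 (5.64%) were 2-fold apart, of which 603 (4.46%) were lower and 159 (1.18%) higher in replicate 2. Of the 22 members, 20 were lower and 2 higher in replicate 2, with a median log2 ratio of replicate 2 over replicate 1 of -0.24 and a range from -0.52 (Col4a1 and Col1a2) to 0.21 (Col16a1, -0.040 with TMM-scaled counts). The median over all 13512 genes was -0.14, with 66.5% lower in replicate 2. With expected counts scaled by TMM the members' median was -0.18 with 17 lower, and that of all genes was 0.01 with 48.5% lower. The 5 members higher with TMM were Col1a1, Col27a1, Col5a3, Col20a1 and Col8a2, all lower by TPM, so members changed direction both ways. Col1a1 went from -0.09 by TPM to 0.08 with TMM. With FPKM 16 of the 22 were lower. The comparison is 1 library against 1, so no test was made. Because the libraries also differed in Xist and Y-linked counts, any part of sex in these ratios cannot be told apart from other differences.

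Counting error alone was small beside these differences for the abundant genes. Relative to all gene counts, Col4a1 had a count ratio of replicate 2 to replicate 1 of 0.788 (exact 95% interval 0.768 to 0.809). Col1a2 was at 0.802 (0.779 to 0.827), whereas Col1a1 was at 1.07 (1.04 to 1.1), above 1. Of the 22 members, 14 had an interval below 1, 1 above 1, and 7 held 1. These intervals cover counting error only and were computed for the members alone. No share over all genes stands beside these counts or those below, so they are no result about collagens as a set. Of the 20 members with a mean under 1 TPM and a value above 0 in replicate 1, 10 were at least 2-fold apart in TPM with no constant added, all lower in replicate 2. Over all 7540 such genes the share 2-fold apart in either direction was 47.5%, so the count is near the background. The set requires a value above 0 in replicate 1 but not in replicate 2, which favours genes lower in replicate 2. How many of the 7540 were lower was not counted, so the shared direction is no result about collagens. The count ratio interval lay below 1 for 6 of the 10 and held 1 for the other 4, Col9a3, Col17a1, Col6a6 and Col19a1. Among the 6, Col6a5 had 221 expected counts in replicate 2 and 483 in replicate 1, a ratio of 0.401 (0.34 to 0.471). Col8a1 had 89 in replicate 2 and 183 in replicate 1, a ratio of 0.426 (0.327 to 0.551), and Col4a3 had 19 in replicate 2 and 64 in replicate 1, a ratio of 0.26 (0.147 to 0.439).

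Transcript length moved with the difference between the libraries. The longest transcript of the 22 members ran from 4100 to 11511 nt with a median of 6228 nt, against a median of 2916 nt over all 13512 genes. Over the genes that are not collagens, the median log2 ratio was 0.02 for 4089 genes under 2000 nt, -0.13 for 5342 genes of 2000 to 4000 nt, -0.28 for 2635 genes of 4000 to 6000 nt and -0.42 for 1424 longer genes. The 10 collagen genes of 4000 to 6000 nt had a median of -0.16 and the 12 longer ones a median of -0.28. Neither median was below that of other genes of its length. With TMM-scaled counts the values were -0.12 for both sets at 4000 to 6000 nt, and -0.22 for the collagen genes and -0.3 for the others above 6000 nt. Across all genes the Spearman correlation of length and log2 ratio was -0.35, a description over genes that share both libraries. The part of length in the collagen difference was not tested.

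**Figure D3:**
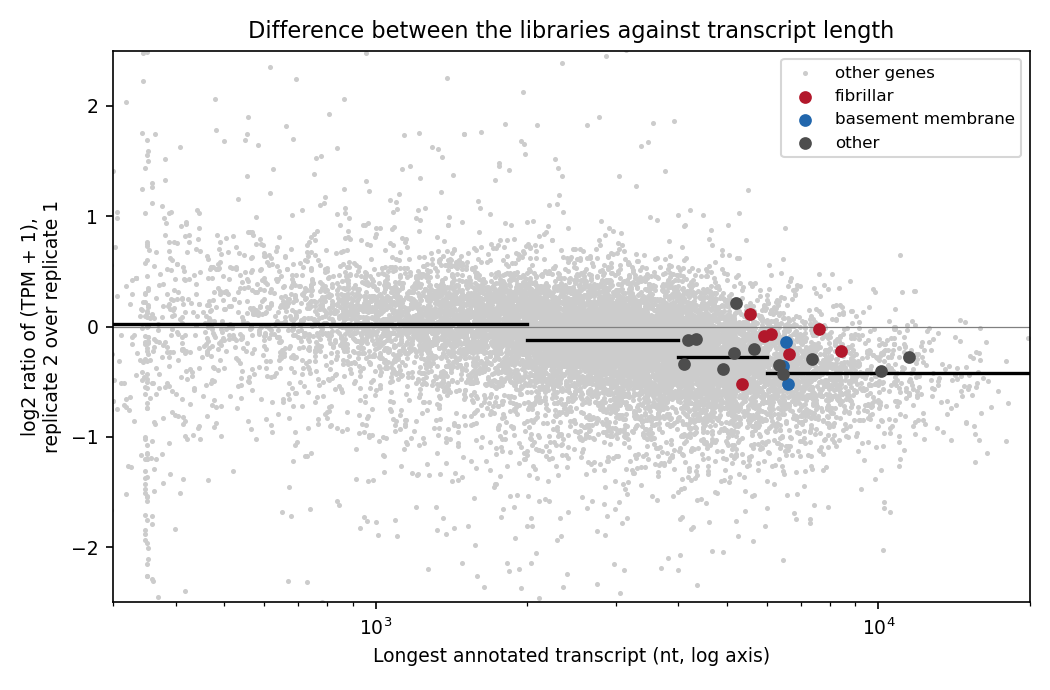
Each point is a gene with a mean of at least 1 TPM, with its longest annotated transcript on the horizontal log axis and the log2 ratio of (TPM + 1), replicate 2 over replicate 1, on the vertical axis, which is limited to 2.5 either way. Black lines are the medians of the other genes in 4 length ranges, from 0.02 to -0.42, and the coloured points are the 22 collagen genes, at -0.52 to 0.21.

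The reads of several collagen genes were assigned in part to short annotated transcripts, and because TPM is per length, few reads on a short transcript make a large part of the gene TPM. For 11 of the 22 genes the same transcript held 90% or more of the gene's TPM in both libraries, among them Col1a1 at 100% and Col4a1 at 99.8%. For 7 genes, transcripts shorter than 50% of the gene's longest one held over 30% of TPM in both libraries. They were Col15a1, Col12a1, Col16a1, Col14a1, Col6a4, Col27a1 and Col5a1. Over all 13512 genes 19% were at that level. Col12a1-204, of 1784 nt against 11511 nt for the longest transcript, held 79.1% of the gene's TPM from 538 of 1531 expected counts in replicate 2 and 65.7% from 423 of 1810 in replicate 1. It spans the last part of the longest transcript, from 74.3% of its length to the end. Col15a1-203, of 1755 nt, held 77.5% in replicate 2 and 54.07% in replicate 1 and spans 67% to 99.9% of the longest transcript.

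The shares of short transcripts also differed between the libraries. Among the 16 genes with any, their share was higher in replicate 2 for 12 and lower for 4, while over all genes with a difference it was higher in replicate 2 for 40.2%. Some differences were very small, as in Col6a1 at 0.08% in replicate 2 and 0% in replicate 1. The 40.2% is not matched for transcript length, so the contrast is no result about collagens. Among the 7 most abundant genes the difference was largest in Col3a1. Its transcript Col3a1-205, of 737 nt, spans 49.2% to 78.1% of the longest transcript and held 29.4% of TPM from 497 expected counts in replicate 2 and was at 0 counts in replicate 1. The effective length of the gene was 3919 nt in replicate 2 and 5307 nt in replicate 1. Col3a1 had 12629 expected counts in replicate 2, against 12117 in replicate 1. Relative to all gene counts this is a ratio of 0.912 (exact 95% interval 0.89 to 0.936), lower in replicate 2, whereas its TPM was higher there by a log2 ratio of 0.11. With counts per kb of the longest transcript the log2 ratio was -0.13. In Col6a4 the leading transcript changed, with Col6a4-203, a noncoding transcript of 1721 nt, at 63.03% in replicate 2 and 43.8% in replicate 1.

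**Figure D4:**
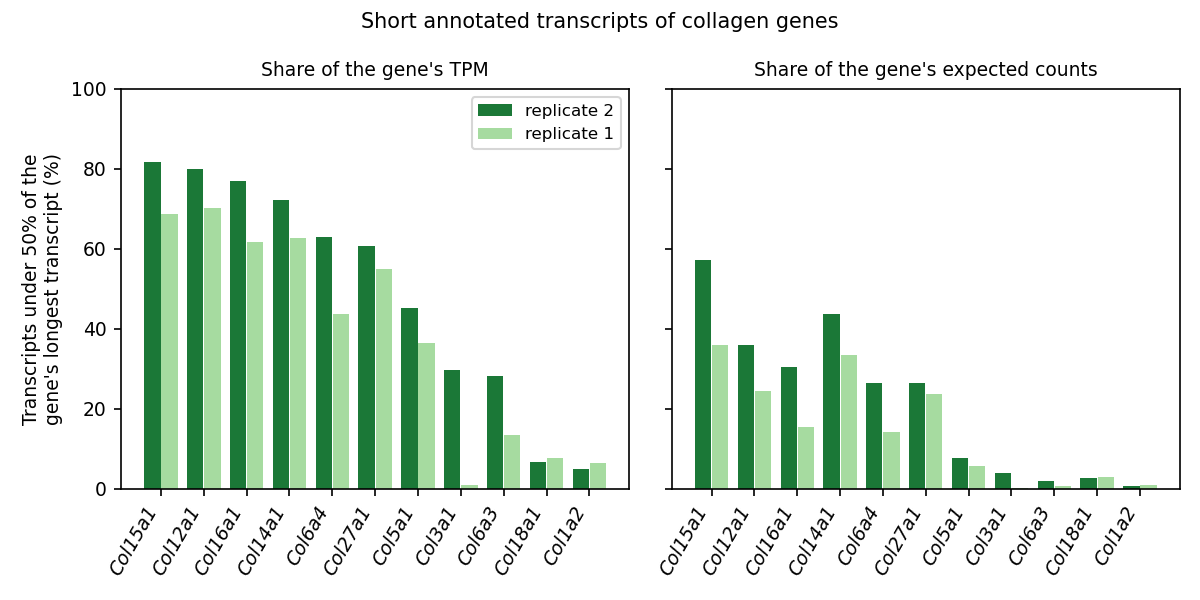
Bars give the percent of each gene's TPM (left panel) and of its expected counts (right panel) assigned to transcripts under 50% of the gene's longest transcript, dark for replicate 2 and light for replicate 1, for genes above 5% in TPM in either library. In Col15a1 the TPM share was 81.8% in replicate 2 and 68.8% in replicate 1, and in Col3a1 it was 29.6% in replicate 2 and 0.85% in replicate 1.

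Genes that make, cross-link, bind and degrade collagen were looked at in 8 lists of 89 genes chosen by textbook role. Of these, 70 were detected in both libraries. Of the 76 with a mean of at least 1 TPM, 5 were 2-fold apart on the log2(TPM + 1) scale, 1 higher and 4 lower in replicate 2, beside the 5.64% of all genes. With no constant added, Lox, Ddr2, Mmp13 and Lama2 were also over 2-fold lower in replicate 2. Their TPM ratios of replicate 2 to replicate 1 were 0.482, 0.484, 0.452 and 0.387.

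None of the 25 genes of the secretory pathway was 2-fold apart, and their levels varied widely, with 9 under a mean of 5 TPM. Of 15 hydroxylation and glycosylation genes 12 were detected, with a median log2 ratio of -0.09, which was 0.17 with TMM-scaled counts. P4hb, a subunit of prolyl 4-hydroxylase that also serves as a protein disulfide isomerase in all secretory cells, was at 406 TPM in replicate 2, against 541 TPM in replicate 1. Ppib, the cyclophilin of the prolyl 3-hydroxylase complex, was at 206 (replicate 2) and 200.1 TPM (replicate 1), and the collagen galactosyltransferase gene Colgalt1 at 36 (replicate 2) and 49 TPM (replicate 1). All 10 chaperone and export genes were detected, with a median of -0.15, or 0.07 with TMM-scaled counts. They were led by Hspa5, a general chaperone of the endoplasmic reticulum, at 366 (replicate 2) and 471 TPM (replicate 1), Sparc, a collagen-binding glycoprotein, at 405 (replicate 2) and 413 TPM (replicate 1), and the coat protein gene Sec13 at 215 (replicate 2) and 232 TPM (replicate 1).

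Outside the cell, the propeptide processing genes had lower TPM in each library than the secretory pathway genes named above. Those are the 3 highest of each list, and others, such as Plod3 at 24.35 (replicate 2) and 25.5 TPM (replicate 1), were below Pcolce. Of the 8 propeptide processing genes 3 were detected, with a median log2 ratio of -0.18, or -0.05 with TMM-scaled counts. Pcolce, the enhancer of the C-proteinase, was at 34.9 TPM in replicate 2, against 31.2 TPM in replicate 1, the C-proteinase gene Bmp1 at 11.8 (replicate 2) and 12.9 TPM (replicate 1) and the N-proteinase gene Adamts2 at 2.34 (replicate 2) and 2.94 TPM (replicate 1). Of 6 cross-linking genes 4 were detected, with a median of -0.29. They were led by the transglutaminase gene Tgm2 at 124 (replicate 2) and 108 TPM (replicate 1), with the lysyl oxidase genes Loxl2 at 13 (replicate 2) and 17.8 TPM (replicate 1) and Loxl1 at 13.1 (replicate 2) and 12.5 TPM (replicate 1). Of 10 fibril-associated genes 9 were detected, with a median of -0.03, or 0.1 with TMM-scaled counts. The small proteoglycan genes Dcn and Bgn were at 150 and 105 TPM in replicate 2, against 126 and 120 TPM in replicate 1, and Fn1 was at 46.7 (replicate 2) and 74.8 TPM (replicate 1). None of these 3 lists had a gene 2-fold apart on the log2(TPM + 1) scale.

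Receptors and degrading enzymes held 3 of the 5 genes that were 2-fold apart. Of 10 receptor genes 9 were detected, with a median of -0.37, led by Itgb1, the common integrin β1 chain, at 36.3 TPM in replicate 2, against 35.7 TPM in replicate 1. The receptor kinase genes Ddr1 and Ddr2 were at 31.9 and 3.83 TPM in replicate 2, against 36.9 and 7.91 TPM in replicate 1. Itga1, the integrin chain that binds type IV collagen, was at 1.82 TPM in replicate 2, against 4.84 TPM in replicate 1, a log2 ratio of -1.05. With FPKM this was -0.91. Of 15 degradation genes 10 were detected, with a median of -0.1, or 0.07 with TMM-scaled counts. Mmp7, a protease of Paneth cells that activates defensins, was at 396 TPM in replicate 2, against 178 TPM in replicate 1, a log2 ratio of 1.15. Mmp9, a gelatinase, was at 5.55 (replicate 2) and 16.4 TPM (replicate 1), a log2 ratio of -1.41. Mmp2 was at 31.9 (replicate 2) and 39.4 TPM (replicate 1) and Mmp14 at 29.04 (replicate 2) and 31.2 TPM (replicate 1).

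Partners of type IV collagen in the basement membrane had the lowest median of the lists, -0.47, with 13 of 14 genes lower in replicate 2, beside -0.14 and 66.5% over all genes. The longest transcripts of these 14 had a median of 6330 nt, and other genes of 6000 nt or more had a median log2 ratio of -0.42. With TMM-scaled counts the median was -0.6 for the list and -0.3 for the other genes of 6000 nt or more. The part of length in this list was not tested. Of the 15 listed 13 were detected, led by agrin, Agrn, at 41.6 TPM in replicate 2, against 66.1 TPM in replicate 1, and the laminin genes Lamc1 at 21.3 (replicate 2) and 28 TPM (replicate 1) and Lama5 at 24 (replicate 2) and 24.5 TPM (replicate 1). Lama3, a chain of epithelial laminin, was at 3.41 TPM in replicate 2, against 13.1 TPM in replicate 1, a log2 ratio of -1.68. Pxdn, the peroxidase that cross-links type IV collagen, was at 6.37 (replicate 2) and 14.6 TPM (replicate 1), a log2 ratio of -1.08. With TMM-scaled counts the ratio of Pxdn was -0.74.

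Markers of the cells that could supply the collagens moved in different directions. The 8 fibroblast genes, all detected, summed to 164 TPM in replicate 2, against 229 TPM in replicate 1, with 5 of 8 lower in replicate 2, beside 66.5% of all genes. Fbln1, a gene of the matrix protein fibulin-1, was at 69.8 (replicate 2) and 123.8 TPM (replicate 1), most of that difference. The 6 smooth muscle genes, all detected, summed to 3660 (replicate 2) and 3098 TPM (replicate 1), with 5 of 6 higher in replicate 2. The exception was the smooth muscle myosin gene Myh11, at 46.3 (replicate 2) and 89.6 TPM (replicate 1), a log2 ratio of -0.94, the largest change in this list. The 5 blood endothelium genes, all detected, summed to 37.6 (replicate 2) and 47.4 TPM (replicate 1) and were all lower in replicate 2, or 4 of 5 with TMM-scaled counts. The 6 epithelial genes, all detected, summed to 8877 (replicate 2) and 10102 TPM (replicate 1) with 5 lower in replicate 2, or 3 with TMM-scaled counts. Among them Vil1 was 2-fold lower, at 381 (replicate 2) and 794 TPM (replicate 1), a log2 ratio of -1.06, or -0.87 with TMM-scaled counts. Median longest transcripts were 3361 nt for the fibroblast list, 2074.5 nt for smooth muscle, 3986 nt for endothelium and 1922.5 nt for epithelium. The 4 adipocyte genes, all detected, summed to 90.4 (replicate 2) and 79.9 TPM (replicate 1), and the 5 glial genes, 3 detected, to 6.2 (replicate 2) and 5.88 TPM (replicate 1). No marker of these 6 lists was at 0 counts in both libraries. Their part in the collagen difference was not tested.

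**Figure D5:**
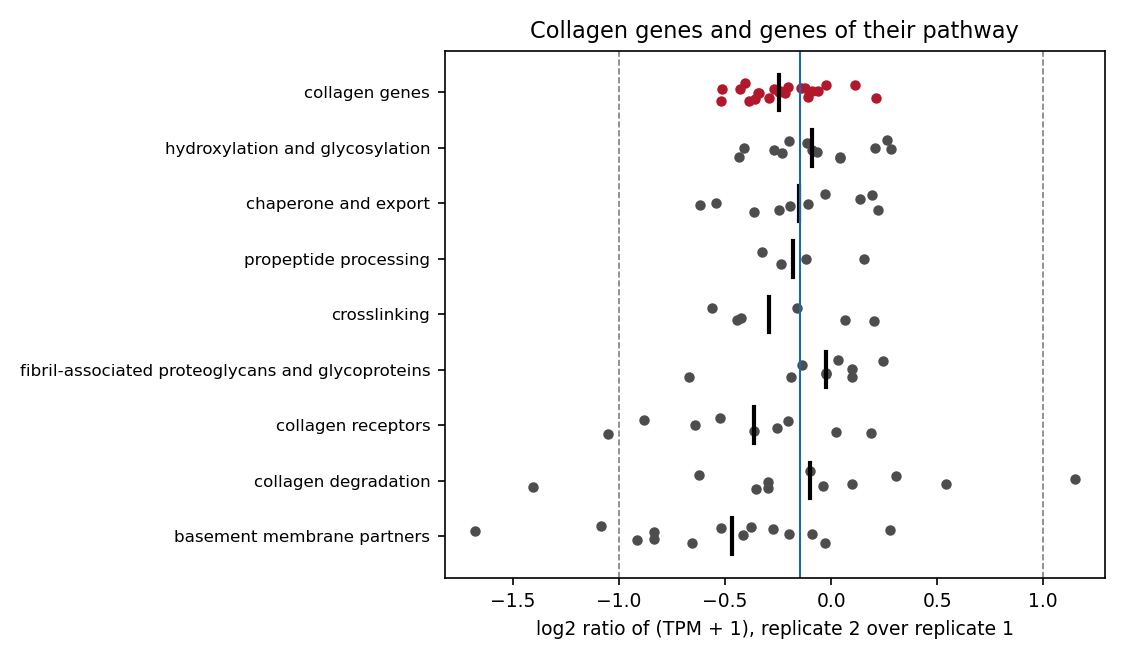
Each point is a gene with a mean of at least 1 TPM, placed by its log2 ratio of (TPM + 1), replicate 2 over replicate 1, with 22 collagen genes in the top row and the 8 pathway lists below. Black bars are list medians, the blue line is the median of all genes at -0.14, and dashed lines mark 2-fold, which 5 pathway genes and no collagen gene passed.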

How the data were processed

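Each library has a table of genes and a table of transcripts, deposited on mm10 with GENCODE M4 according to the notes beside them. The names of the aligner and quantifier were not given in the sources used here. Per the labels, RNA above 200 nt was sequenced as stranded pairs of 76 nt, and the replicates are biological ones under 1 donor record. The deposited expected counts are the authors' estimates and need not be whole. The authors corrected TPM and FPKM for effective length, and deposited the percent of gene TPM held by each transcript. Maximum likelihood values were used.

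Names, biotypes and positions were taken from GENCODE M21 by unversioned identifier, for 42462 of 43346 genes, all 44 members and all 129 list entries. RefSeq promoter windows (GRCm38.p6) existed for 35 members. Ratios were log2((TPM + 1) in replicate 2 / (TPM + 1) in replicate 1) over genes with a mean of at least 1 TPM. With 1 library against 1, no p-value was computed. Count ratio intervals are exact binomial (Clopper-Pearson) and cover counting error only. The ratio step was tested on simulated data. Members and lists were chosen with earlier results of these data known. Every member is accounted for, and of each pathway list the text names the 3 highest by mean TPM and all those 2-fold apart on the log2(TPM + 1) scale. Individual markers, transcripts and neighbours were named after their values were seen. Junctions and contigs on mm9 were not used here. Rounded expected counts were scaled by TMM (edgeR 4.0.16) and by median ratios (DESeq2 1.42.0, under R 4.3.3). Python 3.11.15 ran the remaining steps with pandas 2.3.3, numpy 2.4.6, matplotlib 3.10.9 and scipy 1.17.1.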

Additional observations from a re-analysis of the deposited data

How the results depend on the processing

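Of 96 alternative values 80 stayed close to the reported one, 10 moved and 6 changed sign, where close means within 1.5 times for a count, within 1 SD over both libraries for a level, share or ratio, within 1 SD over the members for their median, and the same sign for a single gene. Class shares and chain ratios are formed within a library, so settings that rescale a whole library, such as FPKM, could not move them. Those values are counted among the 80 and say nothing of stability. The number of detected collagen genes was 36 with a minimum of 10 expected counts in both libraries in place of 1 TPM, 15 with 5 TPM, and 22 or 25 when replicate 1 or replicate 2 was left out. An alternative chosen after seeing the data divided expected counts by the longest transcript whatever transcript the reads were assigned to. The collagen sum was then 349 on that scale, the basement membrane share 17.3%, the ratio of Col3a1 to Col1a1 1.37 (1.28 from counts alone), and all genes 2-fold apart numbered 463 (1135 with a pseudocount of 0.1). The log2 ratios of Col3a1 and Col16a1 were then -0.13 and -0.018, with TMM scaling -0.15 and -0.040 and with median-ratio scaling -0.14 and -0.035, settings also added later for Col16a1. The ratio of Col6a1 to Col6a2 was 1.04 from counts. Pathway genes 2-fold apart numbered 3 with FPKM, 8 with a pseudocount of 0.1 and 3 with counts per longest transcript. With a constant added, and in all but 1 setting a minimum level, no collagen gene was 2-fold apart under the 9 alternatives, which says nothing of the low members. The members' median log2 ratio ran from -0.34 (at least 5 TPM) to -0.09 (FPKM). Leaving out a library gave a collagen sum of 400.2 or 491.6 TPM. No paired analysis was possible because the replicate numbers name the 2 libraries of 1 group. With 2 libraries, the spread between animals is hardly measured, and members under 10 counts cannot be ordered.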

Other observations

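Neighbouring collagen genes had unlike levels at 2 loci and like levels at another. Col6a4, Col6a5 and Col6a6 follow each other on the minus strand of chromosome 9, with gaps of 28810 and 27917 nt, and were at 10.2, 0.42 and 0.01 TPM in replicate 2, against 12.8, 1.2 and 0.02 TPM in replicate 1. Col3a1 and Col5a2, 24614 nt apart on chromosome 1 with opposite strands, were at 55.8 and 4.38 TPM in replicate 2, against 51.6 and 5.39 TPM in replicate 1. Col6a1 and Col6a2, which lie 85161 nt apart on chromosome 10, had TPM ratios of 1.03 in replicate 2 and 1 in replicate 1. These pairs were chosen after their values were seen, and no test was made.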
